A study of Mus musculus and Homo sapiens with 9 samples.

Results

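The 3 IRF2BP genes and VGLL4, which encodes a cofactor of the family, were examined by RNA-seq in IRF2BP2-knockdown J.gamma1 cells and in mouse splenic T cells without Irf2bp2. The rows were chosen by gene symbol (IRF2BP1, IRF2BP2, IRF2BPL and VGLL4, and the same symbols in mouse case), which gave 4 of the 64252 rows of the human count table and 4 of the 43432 rows of the mouse count table. All 4 genes passed the filter on low counts in both tables.

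J.gamma1 is an established cell line of T-cell acute lymphoblastic leukemia (T-ALL) derived from Jurkat. The cells carried, after lentiviral transduction and puromycin selection, either a control hairpin (sh-NC, 2 libraries) or a hairpin against IRF2BP2 (sh-IRF2BP2, 2 libraries); which of the study's hairpins was sequenced is not given in the sources used here. The mouse libraries came from magnetically sorted splenic CD3+ T cells of knockout mice (Vav-iCre+/-;Irf2bp2 fl/fl, 2 libraries) and of controls (3 libraries). The labels call the controls wild type, whereas the study's methods give them as Vav-iCre-/-;Irf2bp2 fl/fl, so that by the methods both groups carried the floxed alleles and the controls lacked the Cre. Vav-iCre is active throughout the blood lineage, so the deletion was not restricted to T cells; the age of the sequenced mice is not given in the labels. The deposited values were whole-number counts per Ensembl gene, and totals lay between 26648204 and 31120236 in the human libraries and between 16668577 and 37177523 in the mouse libraries, with control replicate 3 the shallowest. Nothing in the labels says that libraries of 1 group came from separate cultures or separate mice. The p-values therefore measure only the spread between these libraries.

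IRF2BP1, IRF2BP2 and IRF2BPL encode related nuclear proteins with a zinc finger near one end and a RING domain near the other. The founding members were found as corepressors that bind the interferon regulatory factor IRF2, and IRF2BP2 is also known as a partner of the T cell factor NFAT1. VGLL4 is a vestigial-like protein that binds TEAD transcription factors and competes there with the coactivator YAP; IRF2BP2 has been described in complexes with VGLL4 and TEAD.

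On hg38, IRF2BP2 (ENSG00000168264) lies on the minus strand at chr1:234604269-234610178, and its canonical transcript has 2 exons. IRF2BP1 (ENSG00000170604, chr19:45883608-45886141, minus strand) and IRF2BPL (ENSG00000119669, chr14:77024543-77028708, minus strand) each consist of 1 exon, so that no read in them can cross a splice junction. VGLL4 (ENSG00000144560) spans chr3:11556069-11771350 on the minus strand and has 18 annotated transcripts.

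The sequences show how alike the 3 family members are at the RNA level, which bears on whether their reads can be told apart. The windows of 90 bases near the start of the human coding sequences are given here 5′ to 3′, from the GENCODE 44 transcripts, with capitals at the positions that are identical in all 3 genes.
IRF2BP1: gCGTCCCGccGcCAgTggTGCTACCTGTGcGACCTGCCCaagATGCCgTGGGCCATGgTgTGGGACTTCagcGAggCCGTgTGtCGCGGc
IRF2BP2: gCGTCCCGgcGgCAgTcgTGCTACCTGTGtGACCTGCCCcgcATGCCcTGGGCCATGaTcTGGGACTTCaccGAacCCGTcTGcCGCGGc
IRF2BPL: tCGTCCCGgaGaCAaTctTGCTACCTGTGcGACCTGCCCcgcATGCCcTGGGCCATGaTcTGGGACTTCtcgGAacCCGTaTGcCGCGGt
The windows begin at coding bases 16, 28 and 22, and 68 of the 90 positions were identical in all 3. IRF2BP2 and IRF2BPL matched at 80 positions, IRF2BP1 and IRF2BP2 at 75, and IRF2BP1 and IRF2BPL at 69. A second window of 90 bases at the end of the coding sequences had 61 positions identical in all 3. The longest stretch without a mismatch between transcripts was 39 bases for IRF2BP2 and IRF2BPL, 21 bases for IRF2BP1 and IRF2BPL and 17 bases for IRF2BP1 and IRF2BP2, all shorter than a sequenced read. In mouse the corresponding lengths were 30, 20 and 21 bases.

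IRF2BPL is the longest of the 3, with 2388 coding bases against 1752 in IRF2BP1 and 1761 in IRF2BP2.

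IRF2BP2 fell in J.gamma1 cells with its hairpin and was the most strongly expressed of the 4 genes without it. Its level was 204 and 199 CPM (counts scaled to library sizes adjusted by TMM) with sh-NC and 79.0 and 93.8 CPM with the hairpin against it. Both knockdown libraries lay below both controls, and 42.9% of the control level remained. The log2 fold change was -1.22 (standard error 0.131, 95% interval -1.53 to -0.92), with an adjusted p of 0.0023 (edgeR quasi-likelihood, Benjamini-Hochberg over 15819 genes). Over all genes tested, 5.32% were called lower and 5.83% higher at an adjusted p under 0.05. With sh-NC, IRF2BP2 stood above 94.1% of the genes tested by mean CPM.

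IRF2BPL rose in the knockdown cells. It measured 39.9 and 41.6 CPM with sh-NC and 56.4 and 56.1 CPM with sh-IRF2BP2. The 2 knockdown libraries were nearly equal and both lay above the controls, a 1.38-fold higher mean. The log2 fold change was 0.46 (standard error 0.118, 95% interval 0.19 to 0.74, adjusted p = 0.044 in edgeR). This call stood close to the threshold: it was lost with upper-quartile scaling (adjusted p = 0.065), with every gene of at least 1 count in any library (0.12), and without sh-NC replicate 1 (0.052), sh-IRF2BP2 replicate 1 (0.25) or sh-IRF2BP2 replicate 2 (0.18), while the log2 fold change stayed between 0.41 and 0.49 in these and the other alternatives. IRF2BPL, also known as EAP1, is a family member with roles described in the nervous system.

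IRF2BP1, the other paralog, did not pass the test. It measured 49.2 and 55.5 CPM with sh-NC and 42.8 and 41.9 CPM with sh-IRF2BP2. Both knockdown libraries lay below both controls, with a log2 fold change of -0.31 (95% interval -0.60 to -0.02, adjusted p = 0.16 in edgeR). Among all genes tested, the groups did not overlap and were lower in 28.7%, and did not overlap and were higher in 29.6%, so that the absence of overlap in IRF2BP1, IRF2BP2 and IRF2BPL was common in these libraries.

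VGLL4 showed no difference larger than the spread between replicates. It measured 78.1 and 100 CPM with sh-NC and 85.3 and 105 CPM with sh-IRF2BP2. The groups overlapped, and within each group the library numbered 2 was the higher. The log2 fold change was 0.10 (95% interval -0.28 to 0.47, adjusted p = 0.75 in edgeR), and its sign reversed without sh-NC replicate 1 (-0.08) and without sh-IRF2BP2 replicate 2 (-0.07). The interval leaves room for a change of up to 0.47 on the log2 scale.

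**Figure D1:**
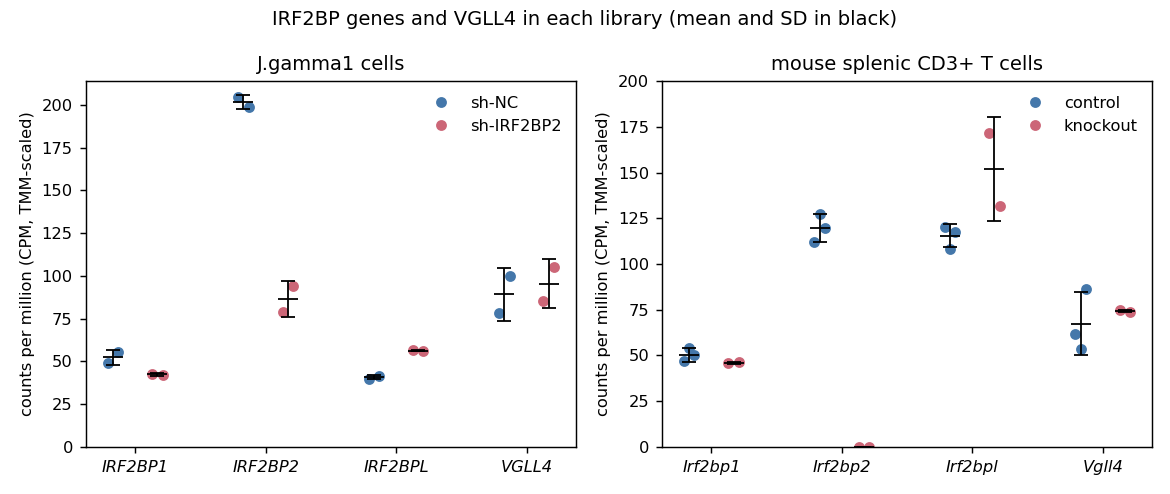
Each point is 1 library, with the gene on the horizontal axis and its TMM-scaled CPM on the vertical axis; black marks give the mean and SD of a group. IRF2BP2 dropped from 204 and 199 to 79.0 and 93.8 CPM in J.gamma1 cells and from 112 to 127 CPM to 0 in mouse T cells, and the IRF2BPL points of the altered libraries lie above the controls in both panels.

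The mouse genes on mm10 are Irf2bp1 (ENSMUSG00000044030, chr7:19004044-19006777, plus strand), Irf2bp2 (ENSMUSG00000051495, chr8:126588296-126593986, minus strand), Irf2bpl (ENSMUSG00000034168, chr12:86880701-86884798, minus strand) and Vgll4 (ENSMUSG00000030315, chr6:114860628-114969994, minus strand). The targeted gene was not detected in the knockout T cells. Irf2bp2 had 4145, 4594 and 1915 counts in the control libraries, or 112, 127 and 120 CPM, and 0 counts in both knockout libraries. With 3 counts per library taken as the most that a 0 can hide, the level was at least 1469-fold lower, a limit that covers counting error only. The call had an adjusted p of 0.00033 in edgeR over 15350 genes, where 2.68% of genes were called higher and 0.15% lower. The fitted log2 fold change of a gene at 0 is set by the prior count and is not given.

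The paralog Irf2bpl was higher in both knockout libraries than in any control library, without passing the test. It measured 120, 108 and 118 CPM in the controls and 172 and 132 CPM in the knockout. Knockout replicate 1 stood well above knockout replicate 2, and the means differed 1.31-fold. The log2 fold change was 0.39 (95% interval 0.04 to 0.75, adjusted p = 0.26 in edgeR, unadjusted p = 0.036), and it was 0.17 without knockout replicate 1. Over all genes tested, 18.2% had knockout libraries above all controls and 17.8% had them below.

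Irf2bp1 and Vgll4 did not pass the test in mouse T cells either. Irf2bp1 measured 46.8, 54.3 and 49.99 CPM in the controls and 45.6 and 46.3 CPM in the knockout, so that both knockout libraries lay just under the lowest control (log2 fold change -0.13, 95% interval -0.43 to 0.17, adjusted p = 0.69 in edgeR). Vgll4 measured 61.9, 53.4 and 86.6 CPM in the controls and 74.9 and 74.0 CPM in the knockout. Its knockout libraries were nearly equal and fell between the controls, of which replicate 3, the shallowest library, was the highest. The log2 fold change of Vgll4 was 0.15 (95% interval -0.35 to 0.65, adjusted p = 0.80 in edgeR), and without control replicate 3 it was 0.36 (adjusted p = 0.18).

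**Figure D2:**
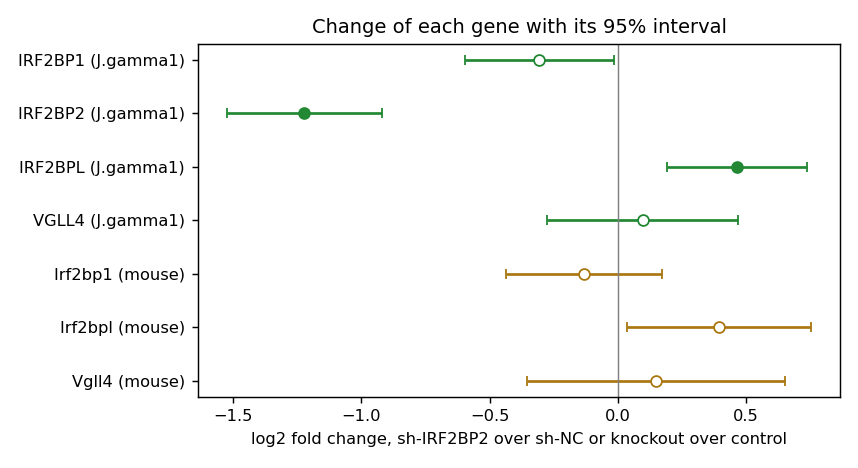
Points give the log2 fold change of each gene (horizontal axis) and bars its 95% interval; green marks J.gamma1 cells, brown marks mouse T cells, and filled points had an adjusted p under 0.05. IRF2BP2 (-1.22) and IRF2BPL (0.46) are the filled points, and mouse Irf2bp2 is left out because it was at 0 in both knockout libraries.

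In the sorted mouse cells, the summed RNA of erythroid and of T cell markers did not overlap between the groups. The RNA came from bulk samples, where fewer cells of a type and less RNA per cell cannot be told apart. The summed CPM of 11 erythroid markers lay between 469 and 1527 in controls and between 3420 and 4666 in the knockout, and 8 of the 11 were called higher, beside 2.68% of all genes tested. The call count of this list fell to 1 without control replicate 1, to 2 without knockout replicate 1 and to 1 without knockout replicate 2. The summed CPM of 15 T cell markers lay between 6129 and 7034 in controls and between 4919 and 5211 in the knockout. Of these markers 0 were called by edgeR, against 6 lower at an unadjusted p under 0.05 and 3 lower by DESeq2. Over all 15350 genes, here and for the mouse comparisons below, edgeR put 1566 higher and 922 lower at an unadjusted p under 0.05. DESeq2 called 936 of the 15350 genes higher and 285 lower. Of 7 plasma cell markers 1 was called higher, Prdm1, by edgeR, and their sum ranged from 414 to 1156 CPM in controls and from 1142 to 1507 CPM in the knockout. Markers of B cells (39.4 to 281 against 42.1 to 116 CPM), myeloid cells (83.7 to 556 against 182 to 288 CPM), NK cells (326 to 421 against 317 to 453 CPM) and platelets (7.40 to 15.4 against 11.2 to 15.6 CPM) overlapped between the groups in their sums. No marker of these lists was at 0 in all 5 libraries, and the part of the other cell types in the levels of Irf2bpl and Vgll4 was not tested.

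The J.gamma1 libraries carried the T cell markers throughout, with sums of 2157 to 2391 CPM with sh-NC and 2217 to 2385 CPM with sh-IRF2BP2. Of the 15 T cell markers tested, 4 were called higher (CD6, CD28, LAT and TRAC) and 1 lower (CD3D). The shares over all genes tested, here and for the lists below, were 5.83% higher and 5.32% lower by edgeR. At an unadjusted p under 0.05, edgeR put 2257 of the 15819 genes higher and 2112 lower. Of the marker lists of other cells, 4 of 12 erythroid, 1 of 9 B cell, 6 of 12 myeloid and 3 of 6 platelet genes were at 0 in all 4 libraries, among them HBB of erythroid cells, MS4A1 of B cells, LYZ and MPO of myeloid cells and PF4 of platelets. Others were detected, such as CD79A (53.1 CPM with sh-NC and 12.6 CPM with sh-IRF2BP2), BLK (13.3 and 13.4 CPM) and TFRC (674 and 579 CPM). The NK list summed to between 53.3 and 57.0 CPM with sh-NC and between 157 and 166 CPM with sh-IRF2BP2, with NKG7, PRF1 and EOMES called higher and GZMA lower among 6 tested. Of the other lists, 1 of 4 B cell markers was called lower (CD79A, list sum 65.9 to 82.6 against 32.6 to 34.5 CPM), 1 of 4 plasma cell markers was called higher (PRDM1) and 1 lower (MZB1, list sum 134 to 150 against 83.0 to 85.5 CPM). The erythroid, myeloid and platelet lists had 0 calls by edgeR and by DESeq2 among 3, 3 and 1 genes tested, with 1, 0 and 0 genes at an unadjusted p under 0.05; their sums were 620 to 730 against 533 to 630, 16.3 to 22.4 against 18.1 to 18.9, and 1.20 to 1.48 against 0.69 to 1.32 CPM.

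Levels of different genes were compared per kilobase of the union of annotated exons. In J.gamma1 cells with sh-NC, the order was IRF2BP2 (37.5 ± 0.75 CPM per kilobase, SD, n = 2), IRF2BP1 (20.7 ± 1.74), VGLL4 (12.4 ± 2.17) and IRF2BPL (9.78 ± 0.29), and no neighbours in this order overlapped between libraries. With sh-IRF2BP2 the 4 genes drew together. IRF2BP1 (16.7 ± 0.26 CPM per kilobase) and IRF2BP2 (16.1 ± 1.96) overlapped, and so did IRF2BPL (13.5 ± 0.06) and VGLL4 (13.2 ± 1.98). With the longest transcript in place of the exon union, VGLL4 rose to 23.6 CPM per kilobase with sh-NC and 25.3 with sh-IRF2BP2, by its mean above IRF2BP1 in both groups and above IRF2BP2 with sh-IRF2BP2, so its place depends on the length used; the order of the IRF2BP genes among themselves was the same with both lengths.

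In control mouse T cells the family had another order. Irf2bpl came first with 28.2 ± 1.56 CPM per kilobase (SD, n = 3), followed by Irf2bp2 with 23.5 ± 1.5, Irf2bp1 with 18.4 ± 1.37 and Vgll4 with 12.5 ± 3.20, and again no neighbours overlapped. In the knockout libraries Irf2bpl stood at 37.04 ± 6.90 CPM per kilobase (SD, n = 2), Irf2bp1 at 16.8 ± 0.18 and Vgll4 at 13.8 ± 0.11. With the longest transcript, Vgll4 was at 30.6 CPM per kilobase in controls, and this estimate again moved with the length used.

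The make-up of the family shifted with the loss of IRF2BP2. In J.gamma1 cells, IRF2BP2 made up 56.7% and 53.7% of the summed CPM per kilobase of the 3 genes with sh-NC, and 32.5% and 36.8% with sh-IRF2BP2. The share of IRF2BPL was 14.3% and 14.5% with sh-NC and 30.0% and 28.4% with sh-IRF2BP2. The share of IRF2BP1 was 29.0% and 31.8% with sh-NC and 37.4% and 34.8% with sh-IRF2BP2. Shares of a sum move together by construction, so the sums are given as well. The 3 genes summed to 67.9 ± 1.28 CPM per kilobase with sh-NC and 46.3 ± 1.64 with sh-IRF2BP2 (SD, n = 2 each). IRF2BP1 and IRF2BPL alone summed to 30.4 ± 2.03 and 30.2 ± 0.32, so that in this sum the opposite movements of the 2 paralogs left a difference smaller than the spread between libraries.

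In mouse T cells the 3 genes summed to 70.1 ± 1.44 CPM per kilobase in controls (SD, n = 3) and to 53.9 ± 6.72 in the knockout (SD, n = 2). Irf2bp1 and Irf2bpl alone summed to 46.6 ± 0.39 in controls, and to 58.6 and 49.1 in knockout replicates 1 and 2. Irf2bpl made up 42.9%, 37.1% and 40.7% of the family in controls. Without Irf2bp2 it made up 71.5% and 65.5%, the rest being Irf2bp1.

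**Figure D3:**
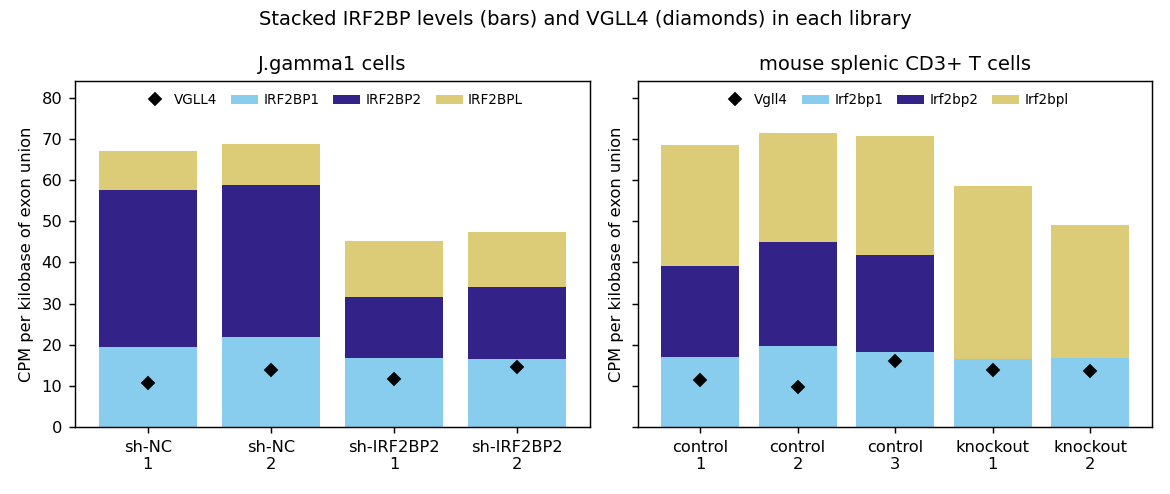
Bars stack the levels of the 3 IRF2BP genes in each library, in CPM per kilobase of exon union on the vertical axis, and diamonds give VGLL4 on the same scale. The IRF2BP2 block shrinks from 38.02 and 36.96 to 14.7 and 17.5 CPM per kilobase in J.gamma1 cells and is missing in the knockout mouse libraries, where Irf2bpl forms 71.5% and 65.5% of the bar.

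The ratio of the paralogs within a library does not depend on the scaling between libraries. The counts of IRF2BPL divided by those of IRF2BP1 gave 0.81 and 0.75 with sh-NC and 1.32 and 1.34 with sh-IRF2BP2. The mouse ratios were 2.57, 1.99 and 2.36 in controls and 3.77 and 2.85 in the knockout. In both tables every altered library had a higher ratio than every control library. This order was fixed by the levels given above, where IRF2BPL was higher and IRF2BP1 lower without overlap in both tables. The ratios and the test on them therefore restate those levels and add no separate evidence. The two-sided exact permutation test gave p = 0.33 for 2 against 2 libraries and p = 0.20 for 3 against 2, which are the smallest values these designs allow here; the ratio was chosen after the values of both genes had been seen.

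The IRF2BP partner list holds transcription factors and cofactors described to bind an IRF2BP protein or to be modified by one, and some relatives such as IRF1. The paper's co-immunoprecipitation covered RUNX1, ERG, ELF1, NFAT1 and IRF2, but not ETS1. In J.gamma1 cells, 6 of 14 tested partners were called higher and 1 lower. Their median log2 fold change was 0.29, beside 0.01 over all genes tested, of which 5.83% were called higher and 5.32% lower. This list, like the other gene lists, was chosen with earlier results of these data known, so the comparison is a description only. The paper itself reports lower ERG in IRF2BP2-knockdown cells. The transcription factor RUNX1 rose from 571 ± 82.6 to 901 ± 63.3 CPM (mean and SD of 2 libraries each), with a log2 fold change of 0.66 (adjusted p = 0.032 in edgeR). CTNNB1, which encodes beta-catenin, had a log2 fold change of 0.70 (adjusted p = 0.011), and IRF1, a relative of IRF2, of 0.50 (adjusted p = 0.049). The IRF1 call was lost without sh-NC replicate 1, sh-IRF2BP2 replicate 1 or sh-IRF2BP2 replicate 2 (adjusted p = 0.078 to 0.26 in edgeR). It was also lost in 3 of the other settings, among them upper-quartile scaling (0.056 to 0.15). The other called partners were ATF7, an ATF family factor (0.71, adjusted p = 0.046), and the MADS-box factors MEF2A (0.60, adjusted p = 0.034) and MEF2D (0.56, adjusted p = 0.025). The ETS factor ERG had 88 to 96 counts per library with sh-NC and 21 to 40 with sh-IRF2BP2, and fell by 1.64 on the log2 scale (adjusted p = 0.041).

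The founding partner IRF2 and the T cell partner NFATC2, the gene of NFAT1, did not pass the test in J.gamma1 cells. IRF2 had a log2 fold change of 0.23 (adjusted p = 0.29) and NFATC2 of -0.18 (adjusted p = 0.54), and the sign of NFATC2 reversed without sh-NC replicate 1 (0.09). Nor did ELF1 (-0.07, adjusted p = 0.79), ETS1 (-0.03, 0.90), JDP2 (-0.08, 0.88) or ATF2 (0.34, 0.099) pass in edgeR. ITGB3BP had -0.52 (adjusted p = 0.060 in edgeR) and was called lower by DESeq2. The calls among partners rested on both knockdown libraries, while the median log2 fold change was 0.34 without sh-IRF2BP2 replicate 1 and 0.20 without replicate 2. Without sh-IRF2BP2 replicate 1, edgeR called 0 partners higher and 0 lower (6 and 1 at an unadjusted p under 0.05), and over all genes the number called higher fell from 923 to 418. Without sh-IRF2BP2 replicate 2, 1 was called higher and 1 lower, and with every gene of at least 1 count in any library 1 was called higher.

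Of the mouse orthologs, none of the 15 tested partners was called by edgeR or DESeq2, and 1, Jdp2, was higher at an unadjusted p under 0.05. Their median log2 fold change was -0.10, beside -0.02 over all genes tested. Runx1 measured 89.7 ± 5.76 CPM in controls (SD, n = 3) and 97.0 ± 25.2 CPM in the knockout (SD, n = 2), and its adjusted p was 0.82 in edgeR.

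VGLL4 acts through TEAD factors, and in J.gamma1 cells these moved in different directions while VGLL4 itself did not pass the test. TEAD1 rose from 24.7 ± 8.39 to 46.7 ± 3.69 CPM (mean and SD of 2 libraries each; log2 change 0.92, adjusted p = 0.036). TEAD4 fell from 20.6 ± 0.87 to 12.6 ± 0.69 CPM (log2 fold change -0.71, adjusted p = 0.033). TEAD3 had a log2 fold change of 0.73 (adjusted p = 0.068, and 0.037 in DESeq2 and without sh-NC replicate 2), and YAP1, the coactivator that competes with VGLL4, one of -0.68 (adjusted p = 0.080), in edgeR. WWTR1, the gene of the YAP relative TAZ, was near the floor, with 2 and 7 counts in the sh-NC libraries and 20 to 22 with sh-IRF2BP2. Of the 9 genes of this list, 6 were tested, with 1 called higher and 1 lower, beside 5.83% and 5.32% of all genes tested. Without sh-IRF2BP2 replicate 1, 0 were called in either direction, and without sh-IRF2BP2 replicate 2 TEAD1 alone was called.

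In mouse splenic T cells the partners of Vgll4 were close to absent from the counts. None of the 9 TEAD, YAP, TAZ and vestigial-like genes passed the filter on low counts, and their summed level lay between 0.33 and 0.59 CPM in controls and between 0.87 and 0.91 CPM in the knockout. Tead4, Vgll1, Vgll2 and Vgll3 had 0 counts in all 5 libraries, and the highest count of any of the 9 genes was 13, for Tead1 in a knockout library. In J.gamma1 cells the same list summed to 59.0 and 70.6 CPM with sh-NC and to 77.1 and 82.2 CPM with sh-IRF2BP2.

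The Hippo kinase cascade, which restrains YAP and TAZ, had 4 genes higher and 1 lower among 26 tested in J.gamma1 cells by edgeR. Their median log2 fold change was 0.19. Over all genes edgeR called 5.83% higher and 5.32% lower. DESeq2 called 7 of the list higher and 2 lower, beside 1282 and 1180 of all 15819 genes tested. The genes that rose were the kinases LATS2 (1.01, adjusted p = 0.0062) and LATS1 (0.77, adjusted p = 0.016), the upstream kinase TAOK1 (0.84, adjusted p = 0.041) and the scaffold NF2 (0.47, adjusted p = 0.047). The scaffold WWC1 fell, with a log2 fold change of -1.91 (adjusted p = 0.011). LATS1, LATS2 and WWC1 stayed called without either knockdown library, whereas TAOK1 did not (adjusted p = 0.061 without replicate 1 and 0.056 without replicate 2), and NF2 was lost without any of sh-NC replicate 1 (0.055), sh-IRF2BP2 replicate 1 (0.35) and sh-IRF2BP2 replicate 2 (0.11). Of the mouse genes 0 of 24 were called by edgeR and by DESeq2, with 2 higher at an unadjusted p under 0.05 and a median of 0.06.

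Of 23 genes used as readouts of YAP and TEAD, 13 passed the filter on low counts in J.gamma1 cells, and the list summed to 338 to 342 CPM with sh-NC and 341 to 372 CPM with sh-IRF2BP2. BIRC5, a gene of dividing cells, accounted for 196 and 195 CPM of the means, while CCN2, FOXF2, NUAK2 and RBMS3 had 0 counts in all 4 libraries. LATS2, which also belongs to the Hippo list, was the 1 gene called higher, and NT5E, the gene of the surface enzyme CD73, the 1 called lower (log2 fold change -1.23, adjusted p = 0.017; 0.061 without sh-IRF2BP2 replicate 2). The median was -0.13, and 5.83% of all genes tested were called higher and 5.32% lower. Of the mouse readouts, 0 of 13 were called by edgeR, 2 were called higher by DESeq2, 5 were higher at an unadjusted p under 0.05, and the median was 0.43. Over all 15350 mouse genes, 1566 were higher at that unadjusted p in edgeR, and DESeq2 called 936 higher.

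Genes tied to IRF2BP2 in other cell types included 3 called higher in J.gamma1 cells among 7 tested, beside 5.83% of all genes tested. Of these, IL2RA and IFNG passed the filter on low counts only through the knockdown libraries. Their direction was thus tied to their being tested. KLF2, a quiescence-related Krüppel-like factor, rose from 20.4 ± 4.01 to 45.4 ± 4.98 CPM (mean and SD of 2 libraries each; log2 change 1.16, adjusted p = 0.0069). IL2RA, the alpha chain of the IL-2 receptor, had 2 counts in each sh-NC library and 57 to 94 with sh-IRF2BP2, a ratio of 36.7 with a counting interval of 14.03 to 136 (exact, 95%). IFNG, the gene of interferon gamma, had 0 counts with sh-NC and 12 and 13 with sh-IRF2BP2, at least 4.02-fold higher against the limit of 3 counts per library; its call was lost without sh-NC replicate 2 (adjusted p = 0.061) and with every gene of at least 1 count in any library (0.085), it had no adjusted p in DESeq2, and it was not tested without either knockdown library. BAX, an apoptosis effector, had a log2 fold change of -0.59 (adjusted p = 0.063 in edgeR and 0.030 in DESeq2). The median of the list was 0.06, and IFNG at its bound leaves it unchanged.

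For the mouse, 0 of the 10 orthologs were called by edgeR, 3 were higher at an unadjusted p under 0.05, and 1, Ifng, was called by DESeq2. Ifng measured 3.21 ± 1.37 CPM in controls (SD, n = 3) and 10.7 ± 3.48 CPM in the knockout (SD, n = 2), with an adjusted p of 0.086 in edgeR and 0.041 without control replicate 3. Il2ra measured 50.9 ± 9.44 and 53.1 ± 12.3 CPM. Klf2 measured 386 ± 63.3 and 298 ± 145 CPM, and neither passed the test.

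**Figure D4:**
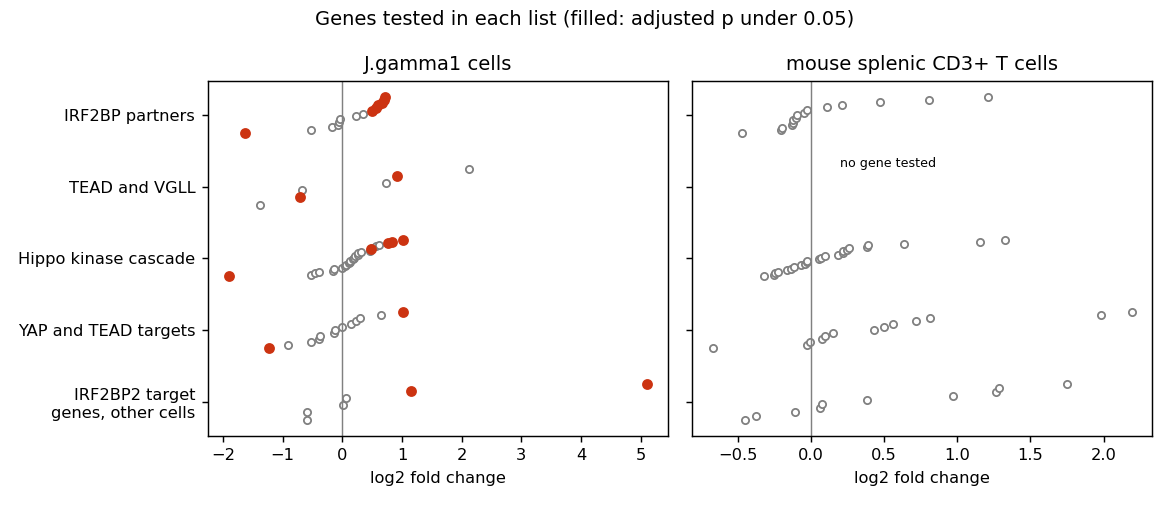
Each circle is 1 tested gene, placed by its log2 fold change on the horizontal axis within its list; filled red circles had an adjusted p under 0.05, and IFNG is left out in J.gamma1 cells because it was at 0 with sh-NC; the panels have different horizontal scales. The IRF2BP partner list holds 6 filled circles to the right and 1 to the left in J.gamma1 cells, and no circle is filled in the mouse panel.

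The genes that overlap a member on the opposite strand were followed because their reads cannot be told apart from those of the member unless the counting used the strand, which the sources used here do not state. ENSG00000228830, a long non-coding RNA inside the body of IRF2BP2 (chr1:234607008-234609483), had 35 to 41 counts with sh-NC and 11 to 18 with sh-IRF2BP2 (adjusted p = 0.11). ENSG00000273729, which overlaps the 5′ part of IRF2BPL, had 25 to 28 counts with sh-NC and 37 to 39 with sh-IRF2BP2 (adjusted p = 0.51). Neither passed the test. ATG7, which meets the 3′ end of VGLL4, had 595 to 816 counts with sh-NC and 648 to 671 with sh-IRF2BP2 (adjusted p = 0.61). In mouse, Gm26759, antisense to Irf2bp2, had 5 to 10 counts in controls and 0 in both knockout libraries. The counts of these non-coding RNAs were at most 41, beside 1033 or more for every member in J.gamma1 cells.

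Genes within 500 kb of a member were compared as well. In J.gamma1 cells 47 such genes were tested. By edgeR 0 were called higher and 3 lower, and by DESeq2 0 and 5. At an unadjusted p under 0.05 in edgeR, 4 were higher and 8 lower, beside 2257 and 2112 of all 15819 genes. The 3 called lower are a share close to the 5.32% of all genes tested that were called lower, so they are given as values only. Near IRF2BP2, TARBP1 (chr1:234391313-234479179) had a log2 fold change of -0.46 (adjusted p = 0.046) and TOMM20 (chr1:235109341-235128837), a receptor of the mitochondrial outer membrane, one of -0.81 (adjusted p = 0.0058). They were 2 of 8 genes tested there, and the TARBP1 call was lost without sh-IRF2BP2 replicate 1 (adjusted p = 0.28) or replicate 2 (0.13). Of the 8 genes, some of them at low counts, 1 was higher and 5 lower at an unadjusted p under 0.05 in edgeR. Their median log2 fold change was -0.63, beside 0.02 near IRF2BP1, 0.20 near IRF2BPL and -0.09 near VGLL4. The cause was not tested. Near IRF2BPL, ANGEL1 (chr14:76786009-76826246) fell by 0.67 on the log2 scale (adjusted p = 0.015), and its call was lost without sh-IRF2BP2 replicate 1 (0.078) or replicate 2 (0.053). In mouse T cells 50 neighbours were tested; 0 were called by edgeR and 1 by DESeq2, with 3 higher and 4 lower at an unadjusted p under 0.05.

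The genes whose profile over libraries was nearest to each member were found among those of at least 10 CPM, by the Euclidean distance of log2(CPM + 1) values centred on each gene's mean. Over the 4 J.gamma1 libraries and 9751 genes, CKAP4 (distance 0.061) and STX7 (0.070) were nearest to IRF2BP2, and STX6 (0.015) and SH3KBP1 (0.024) to IRF2BPL. NDUFV2 (0.011) and TMEM14B (0.013) were nearest to IRF2BP1, and ACAP3 (0.033) and FAM78A (0.034) to VGLL4. Over the 5 mouse libraries and 9096 genes, Aldh9a1 (0.045) and Coq9 (0.047) were nearest to Irf2bp1, Ikzf4 (0.095) and Phka2 (0.095) to Irf2bpl, and Zc3h13 (0.043) and Smarca4 (0.050) to Vgll4. With so few libraries such matches are a description only.

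The 250 bases before 1 annotated transcript start of each gene were read for short motifs on both strands, because IRF2BPL was the family member that moved against IRF2BP2. The words searched were TGTGGT for RUNX, CCGGAA for ETS, GGAATG for TEAD, and the interferon-stimulated response element by its core; TGACGTCA, a binding word of ATF and CREB factors, was added after the promoters had been read. The upstream bases of IRF2BPL and of its mouse ortholog follow, 5′ to 3′ on the strand of the gene, with capitals at matches.
IRF2BPL (hg38 chr14:77028709-77028958, minus strand): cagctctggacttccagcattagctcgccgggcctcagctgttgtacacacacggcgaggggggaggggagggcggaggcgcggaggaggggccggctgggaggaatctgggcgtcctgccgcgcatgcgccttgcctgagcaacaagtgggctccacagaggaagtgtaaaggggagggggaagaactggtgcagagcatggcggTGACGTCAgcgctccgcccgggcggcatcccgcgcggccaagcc
Irf2bpl (GRCm38.p6 chr12:86884815-86885064, minus strand, RefSeq): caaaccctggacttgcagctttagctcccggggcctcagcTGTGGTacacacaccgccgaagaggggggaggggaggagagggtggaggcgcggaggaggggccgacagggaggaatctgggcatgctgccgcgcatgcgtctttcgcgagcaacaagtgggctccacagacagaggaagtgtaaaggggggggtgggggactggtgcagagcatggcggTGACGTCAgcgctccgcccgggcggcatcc
TGACGTCA begins 44 bases before the GENCODE start of IRF2BPL and 30 bases before the RefSeq start of Irf2bpl, and it is its own reverse complement. The RefSeq start lies upstream of the Irf2bpl span given above, so these distances are not measured alike. No other member had it in either organism, and it was found in 2.41% of 20033 human and 1.55% of 32851 mouse promoters of the same length. The human promoters precede 1 canonical transcript per protein-coding gene, and the mouse ones precede RefSeq starts. Because this word was picked from the promoters themselves, its rarity is a description only. Irf2bpl also held TGTGGT, which 14.05% of mouse promoters hold. The windows of VGLL4 (chr3:11643916-11644165) and Vgll4 (chr6:114969204-114969453) precede the start of 1 of several transcripts and lie within the spans of the genes given above. There VGLL4 held 1 interferon-stimulated response element (2.84% of human promoters) and Vgll4 1 GGAATG (12.6% of mouse promoters). CCGGAA was in none of the windows of the 4 genes, in either organism, and in 19.4% of human and 12.0% of mouse promoters. TGTGGT was held by 8.87% and GGAATG by 9.87% of human promoters, and the interferon-stimulated response element by 2.98% of mouse promoters. The windows of IRF2BP1 and IRF2BP2 held no word of the 5, in human or in mouse.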

How the data were processed

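RNA was measured by RNA-seq (TRIzol extraction, TruSeq libraries). The authors aligned the reads with HISAT2 2.2.0 (hg38 and mm10, per the submitters' processing notes), ran StringTie and supplied raw gene counts, deposited without normalization; the conversion to counts, the annotation and the use of strand are not given in the sources used here. Genes were annotated with GENCODE. Each table was fitted in edgeR 4.0.16 (filterByExpr, TMM, quasi-likelihood test on condition only, R 4.3.3), with Benjamini-Hochberg adjustment over all genes tested; a call is an adjusted p under 0.05. DESeq2 1.42.0, other scalings, filters and left-out libraries were the alternatives.

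Named were the 4 genes, tested genes of the partner, TEAD and target lists, called genes of the other lists and neighbours, and the 2 genes of nearest profile. The members and lists were chosen with earlier results of these data known. On simulated counts the human fit recovered 61 of 100 genes changed by 1 on the log2 scale (15518 genes) and the mouse fit 22 of 100 (15067 genes). Replicates differed by more than sampling noise (chi-square per gene 19.5 to 90.2). The intervals of log2 fold changes come from the fit over libraries, whereas the interval of a count ratio and the floors cover counting error only. Some items are not reported here.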

Additional observations from a re-analysis of the deposited data

Results flagged for a closer look

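The members and the tested genes of the partner, TEAD and target lists were searched for groups apart in opposite directions in the organisms. For 3 genes, all of the IRF2BP partner list, the groups did not overlap in either organism and lay in opposite directions. How often this occurs over all genes was not computed, so the 3 are given as values only. Each of their calls in J.gamma1 cells was lost in at least 1 alternative. The difference between the organisms was not tested. Over all genes tested, groups did not overlap and were higher in 29.6% and lower in 28.7% of human genes, and in 18.2% and 17.8% of mouse genes. IRF1 had a log2 fold change of 0.50 in J.gamma1 cells and Irf1 one of -0.20 in mouse T cells (adjusted p = 0.52 in edgeR). ERG had -1.64 in J.gamma1 cells and Erg 0.81 in mouse T cells, where it had 10 to 24 counts in controls and 39 to 42 in the knockout (adjusted p = 0.44 in edgeR). CTNNB1 had 0.70 in J.gamma1 cells and Ctnnb1 -0.12 in mouse T cells (adjusted p = 0.72 in edgeR).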

How the results depend on the processing

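IRF2BP2 stayed called lower in every alternative run, between -1.35 and -1.13 without 1 library. The IRF2BPL call was lost with upper-quartile scaling (0.41) and with every gene of at least 1 count in any library (0.43); without 1 library its log2 fold change lay between 0.43 and 0.49. VGLL4 ranged from -0.075 to 0.29 without 1 library. The sign also turned for NFATC2 (-0.41 to 0.088), Runx1 (-0.20 to 0.33), Klf2 (-1.01 to 0.032) and Il2ra (-0.22 to 0.26). The causes were not tested.

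In J.gamma1 cells 923 genes were called higher and 841 lower. With every gene of at least 1 count these were 319 and 396, and without 1 library 418 to 1863 and 419 to 1384, the lowest without sh-IRF2BP2 replicate 1 and the highest without sh-NC replicate 1. In mouse T cells 412 were called higher and 23 lower; DESeq2 gave 936 and 285, counts divided by 2 gave 37 lower, and without 1 library the counts were 6 to 594 and 1 to 65, the lowest without control replicate 1. Without knockout replicate 1 they were 47 and 3, and without knockout replicate 2 they were 9 and 1. Without TMM, IRF2BPL with sh-IRF2BP2 was at 13.4, Irf2bp1 in the knockout at 17.2 and Vgll4 in the knockout at 14.1 CPM per kilobase. With the longest transcript, VGLL4 was at 23.6 (sh-NC) and 25.3 (sh-IRF2BP2) and Vgll4 at 30.6 (control) and 33.9 (knockout) CPM per kilobase. Irf2bp2 had no value with at least 10 counts in every library, since it was at 0 in the knockout.

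Replicate numbers are shared between groups, but nothing in the labels makes them pairs; deviations of the libraries numbered 1 correlated at 0.29 in human and 0.02 in mouse. With the replicate block, 1884 genes were called higher and 1663 lower in J.gamma1 cells, and 437 and 48 in the mouse libraries numbered 1 and 2, where the fit with no replicate block gave 51 lower. IRF2BPL then had an adjusted p of 0.015 in edgeR.

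The fits left 2 residual degrees of freedom in the human and 3 in the mouse table. On simulated counts, genes changed by 1 on the log2 scale were recovered in 61 of 100 cases in the human fit and 22 of 100 in the mouse fit. The changed genes were drawn at random from all genes tested, with the same spread between libraries for every gene. These rates therefore do not tell how often a change of a paralog would be missed.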
